A study of Mus musculus with 6 samples.

Results

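The genes described here encode the protein subunits of the mitochondrial ribosome. They were chosen by name, as the rows of the deposited count table whose gene symbol begins with Mrpl or Mrps and a number and whose counts over the 6 libraries summed to at least 60. Of 21847 genes in the table, 77 met this rule, and no row with such a name fell under the floor. By name in the structure-based nomenclature, 50 of them were counted in the large subunit and 27 in the small subunit. The 27 include Mrps36, whose product is also known as a subunit of the 2-oxoglutarate dehydrogenase complex of the citric acid cycle. Mrps18a and Mrps30 carry small-subunit names but sit in the large subunit, as mL66 and mL65, and were counted there.

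Mouse spleen cells sorted as macrophages after 3 days of culture on human mesenchymal stromal cells (MSCs) were profiled by RNA-seq. In the Qtracker positive group, 3 libraries came from cells carrying the fluorescent label of the MSCs and recorded as having engulfed them. In the Qtracker negative group, 3 libraries came from cells of such cultures without that label, recorded as not having engulfed MSCs. Both groups came from splenocytes depleted of T cells before culture, and both had been exposed to MSCs from cord tissue, so neither is a culture without MSCs. The labels used here give no genotype, strain, sex or age, and the gate is written with Ly6G in one label and Ly6C in another. The series describes the replicates as paired triplicates, but the labels do not say that each pair came from a different animal. The spread behind each p-value is that of these 6 libraries and may be in part technical. Cells of the positive group held human material, and whether human RNA added reads to the mouse gene counts was not tested.

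The mitochondrial ribosome translates the few messenger RNAs made from mitochondrial DNA, all of which encode subunits of the respiratory chain and ATP synthase. Its ribosomal RNAs are transcribed inside the organelle, whereas its proteins are all encoded in the nucleus, made on cytosolic ribosomes and imported. Many of the proteins descend from those of the bacterial ribosome (names beginning with u or b in the structural nomenclature). The others have names beginning with m, and most of them were added during the evolution of mitochondria.

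Promoters of these genes commonly hold sites of NRF1 (nuclear respiratory factor 1), of ETS-family factors such as GABP, and of YY1. The promoter windows of 4 members are printed to show how members with unlike values carry such letters. Mrpl27, Mrps18a and Mrps18b were among the largest rises, and Mrpl10 was chosen as a contrast because its fitted change was 0.00. Each window runs from 250 bases before the annotated start to 50 after it, 5′ to 3′ on the gene's strand, from RefSeq on GRCm38.p6. Mrpl27 lies at chr11:94653541-94653840 on the plus strand, Mrps18a at chr17:46110754-46111053 on the plus strand, Mrps18b at chr17:35916391-35916690 on the minus strand and Mrpl10 at chr11:97041332-97041631 on the plus strand. Capitals mark GCGCATGCG (NRF1), CCGGAAG (ETS) or AAGATGGCG (YY1) on either strand.
Mrpl27: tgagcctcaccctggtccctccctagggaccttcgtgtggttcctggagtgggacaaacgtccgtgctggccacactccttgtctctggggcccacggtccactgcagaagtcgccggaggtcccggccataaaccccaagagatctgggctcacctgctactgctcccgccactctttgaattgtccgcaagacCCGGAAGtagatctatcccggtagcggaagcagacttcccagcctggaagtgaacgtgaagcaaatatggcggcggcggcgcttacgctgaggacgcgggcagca
Mrps18a: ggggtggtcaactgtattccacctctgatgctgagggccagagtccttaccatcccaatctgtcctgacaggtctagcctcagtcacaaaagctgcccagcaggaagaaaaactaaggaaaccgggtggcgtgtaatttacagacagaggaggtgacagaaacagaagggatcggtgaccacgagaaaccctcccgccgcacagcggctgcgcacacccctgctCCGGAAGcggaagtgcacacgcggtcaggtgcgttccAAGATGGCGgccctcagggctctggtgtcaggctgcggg
Mrps18b: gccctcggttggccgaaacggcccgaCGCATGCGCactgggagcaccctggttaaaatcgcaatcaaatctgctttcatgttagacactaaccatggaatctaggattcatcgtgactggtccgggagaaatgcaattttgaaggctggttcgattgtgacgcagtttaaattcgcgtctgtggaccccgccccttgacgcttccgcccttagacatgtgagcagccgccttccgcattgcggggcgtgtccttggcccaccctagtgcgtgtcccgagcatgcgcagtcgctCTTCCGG
Mrpl10: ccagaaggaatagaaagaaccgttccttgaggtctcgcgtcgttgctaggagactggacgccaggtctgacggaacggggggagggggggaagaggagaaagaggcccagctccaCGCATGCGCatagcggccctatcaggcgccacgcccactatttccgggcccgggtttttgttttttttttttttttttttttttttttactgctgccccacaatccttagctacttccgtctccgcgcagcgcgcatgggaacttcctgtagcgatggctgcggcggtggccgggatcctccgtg
The Mrpl27 window holds the ETS letters 55 bases before the start. The Mrps18a window holds the ETS letters 26 bases before the start and the YY1 letters 11 bases after it. The Mrps18b window holds the NRF1 letters, on the opposite strand, 224 bases before the start. Its ETS letters, also on the opposite strand, begin 43 bases after the RefSeq start. The GENCODE M21 gene, from 35910379 to 35916389 on the minus strand, starts outside this window, so these letters lie before that start. In the Mrpl10 window the NRF1 letters stand on the opposite strand, 135 bases before the start.

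A promoter window was found for 68 of the 77 members. The NRF1 letters stood in 7 of them (10.3%), against 1.95% of all 27025 genes with a window and 3.99% of the 10267 that were tested here. The ETS letters stood in 25 (36.8%), against 9.93% of all genes and 19.97% of tested genes. The YY1 letters stood in 8 (11.8%), against 1.64% of all genes and 3.48% of tested genes. At least 1 of these motifs stood in 35 members (51.5%), against 25.5% of tested genes, and no matches of different motifs overlapped. The CCAAT letters stood in 38.2% of members, against 42.8% of tested genes, and TATAAA in 7.35%, against 8.69%. The members' promoters thus held the 3 motifs at higher shares than all genes did, but not CCAAT or TATAAA. A match is a run of letters and not a measured binding site.

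Total counts were 42490705, 55506993 and 53656135 in the positive libraries and 33943090, 42259316 and 44061187 in the negative ones. Marker genes of other cell types were higher in the negative libraries, and replicate 1 differed from replicates 2 and 3. Levels are given as CPM, edgeR's counts per scaled library total, with TMM factors that correct for differences in RNA composition. The 8 macrophage markers summed to 27945 to 36652 CPM in the positive libraries and 1236 to 15208 CPM in the negative ones, and 5 of 8 rose. The lowest of these sums was that of negative replicate 1, where Itgam, which encodes CD11b of the sort gate, had 259.6 CPM against 2269 and 2211 CPM in the other negative libraries. Of the 12 neutrophil markers 10 fell, with sums of 1327 to 1969 CPM in the positive libraries and 3538 to 72727 CPM in the negative ones. Ly6g itself was at 0.0264, 0 and 0.38 CPM in the positive libraries and at 1.33, 25.9 and 29.2 CPM in the negative ones. Ncr1, a defining NK cell gene, was at 0.0264, 0 and 0 CPM in the positive and at 1.51, 0.605 and 0.387 CPM in the negative libraries. Of the 9 B cell markers 8 fell (930 to 998 CPM in positive, 10643 to 22528 CPM in negative libraries), as did 6 of 7 tested NK cell markers (1.50 to 6.62 CPM against 16.2 to 90.5 CPM). Of the T cell markers 7 of 8 fell (12.2 to 14.1 CPM against 27.1 to 133.5 CPM), as did 4 of 5 tested dendritic cell markers (3.06 to 5.37 CPM against 26.6 to 63.6 CPM). The eosinophil, basophil and mast cell markers, with sums of 81.3 to 312.4 CPM against 78.6 to 384.4 CPM, split into 2 that rose (Prg2 and Epx, eosinophil granule genes) and 5 that fell. Of 14 proliferation genes 7 fell, with sums of 389.2 to 506.02 CPM against 756.1 to 1843 CPM. These shifts in cell markers run along the same contrast as every result below, and their part in those results was not tested. In such bulk samples fewer cells of a type and less RNA per cell cannot be told apart.

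Of the 77 mitochondrial ribosomal protein genes, 76 had enough counts to be tested, 25 rose in Qtracker positive cells and 0 fell (edgeR quasi-likelihood test with the replicate as a block, adjusted p under 0.05 over 14605 genes), while 4 rose and 5 fell when libraries were scaled to respiratory chain genes. Over all tested genes 8.48% rose and 29.6% fell on that scale. In the edgeR fit with TMM factors 18.5% of all tested genes rose and 16.3% fell, whereas 32.9% of the tested members rose. The remaining 51 tested members did not pass. The change was modest in size. The median log2 fold change was 0.50 over the members (middle 50% from 0.30 to 0.70, extremes -0.77 and 1.50), beside -0.01 over all tested genes, and 6 members were above 2-fold. The fitted value was positive in 71 members and negative in 5. At an unadjusted p under 0.05 the edgeR test held 47 of the 76 members, all of them higher, where it held 50.3% of all tested genes in either direction. DESeq2 called 32 members higher and 0 lower (23.4% and 25.1% of all tested genes), and limma-voom 27 and 0 (20.6% and 19.5%).

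Summed over all members, the level was 2324, 1811 and 1826 CPM in the positive libraries and 1573, 1366 and 1397 CPM in the negative ones, or 1987 ± 292 CPM and 1445 ± 112 CPM (SD, n = 3 each). Every positive library stood above every negative one in this sum, and replicate 1 was the highest of both groups. Gene by gene, all 3 positive libraries lay above all 3 negative ones in 53 members, where 30.0% of all tested genes do so. In 0 members did they all lie below, where 29.4% of all tested genes do so, and in 23 members the groups overlapped. The positive library was above its own negative partner in 66, 69 and 68 of the 76 members in pairs 1, 2 and 3. In 61 members this held in every pair, in 2 (Mrpl24 and Mrpl49) it was reversed in every pair, and 13 were mixed. Of all 14605 tested genes, 7230, 7356 and 7331 were above in pairs 1, 2 and 3. Among them 5361 were above in every pair and 5262 were below in every pair. The members' median log2 ratio was 0.58, 0.45 and 0.42 in pairs 1, 2 and 3.

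**Figure D1:**
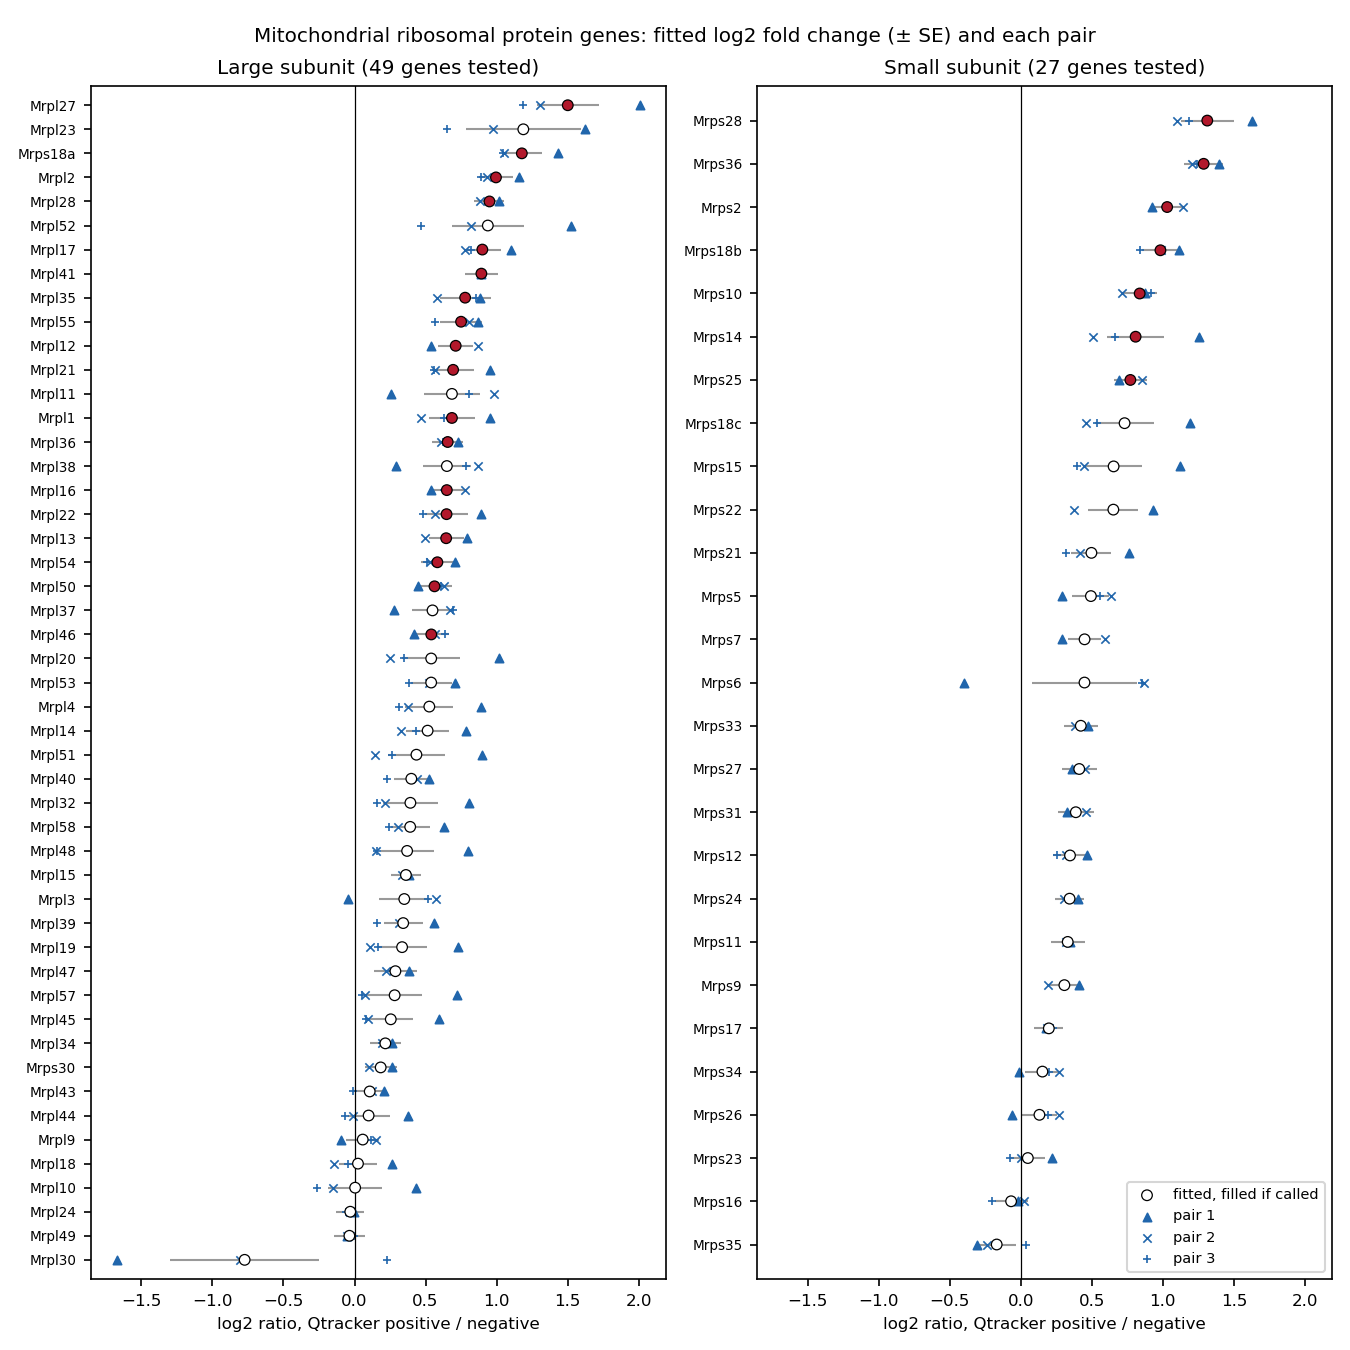
Fitted log2 fold change (Qtracker positive over negative) of each tested member, for the 49 large-subunit and 27 small-subunit genes. Circles are fitted values, filled where called, and lines are approximate standard errors. The log2 ratio in each of the 3 pairs is also drawn. Most circles lie between 0 and 1, the pair 1 triangles often lie apart from pairs 2 and 3, and Mrpl30 and Mrps6 have the pairs farthest apart.

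In the large subunit 18 of 49 tested genes rose (36.7%) and 0 fell, beside 18.5% and 16.3% of all tested genes. The median of their fitted changes in the large subunit was 0.54. In the small subunit 7 of 27 rose (25.9%) and 0 fell, with a median of 0.45. Without Mrps36 6 of 26 rose (23.1%), with a median of 0.44. Large-subunit genes summed to 1565, 1213 and 1221 CPM in the positive libraries and 1035, 920.4 and 940.8 CPM in the negative ones. Small-subunit genes summed to 759.6, 598.5 and 604.3 CPM in the positive libraries and 538.6, 445.7 and 456.05 CPM in the negative ones. Both sums were higher in every positive library than in any negative one. The median ratio per pair was 0.71, 0.47 and 0.43 in the large subunit and 0.41, 0.45 and 0.41 in the small subunit, and the difference between the subunits was not tested. Classed by structural name, 45 members had a bacterial homologue, of which 17 rose (37.8%), with a median of 0.53. Of the 31 tested members classed as mitochondria-specific 8 rose (25.8%), with a median of 0.41. These 8 include Mrps18a and Mrps18b, which have m names but are paralogs of Mrps18c, classed with a bacterial homologue. The large-subunit genes with a bacterial homologue had 13 of 29 that rose (44.8%, median 0.64). Of the 3 other classes, 5 of 20 large mitochondria-specific genes rose (25.0%). In the small subunit 4 of 16 with a homologue (25.0%) and 3 of 11 mitochondria-specific genes (27.3%) rose. The differences between these classes were not tested.

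Mrpl27 encodes bL27m, whose bacterial counterpart reaches into the peptidyl transferase centre, where peptide bonds form. It is ENSMUSG00000024414, on chromosome 11 from 94653767 to 94660089 (mm10), plus strand. It had 40.8, 30.5 and 29.5 CPM in the positive libraries, against 10.1, 12.3 and 13.0 CPM in the negative ones, so the groups were far apart. The log2 fold change was 1.50 ± 0.22 (approximate standard error, edgeR adjusted p = 0.0198), the highest of the members. Mrpl2, encoding uL2m beside the same centre, had 55.6, 38.5 and 36.7 CPM in positive and 24.9, 20.1 and 19.8 CPM in negative libraries. It rose by 1.00 ± 0.12 on the log2 scale (edgeR adjusted p = 0.0149), again with no overlap.

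The Mrps18 genes are 3 paralogs of 1 bacterial gene whose products occupy different places in the mitochondrial ribosome. Mrps18a (ENSMUSG00000023967, chromosome 17 from 46110986 to 46128910, plus strand), in the large subunit, had 56.6, 36.1 and 35.6 CPM in the positive libraries and 20.9, 17.4 and 17.2 CPM in the negative ones. Its log2 fold change was 1.18 ± 0.14 (edgeR adjusted p = 0.0148). Mrps18b, mS40 of the small subunit, had 28.4, 18.6 and 17.4 CPM in positive and 13.1, 9.36 and 9.67 CPM in negative libraries, and rose by 0.98 ± 0.13 (edgeR adjusted p = 0.0165). Mrps18c, which holds the place of the bacterial protein as bS18m, had 19.6, 16.4 and 18.2 CPM in positive and 8.58, 11.9 and 12.5 CPM in negative libraries. Its log2 fold change of 0.73 ± 0.21 did not pass (edgeR adjusted p = 0.0638), although its groups did not overlap either. Mrps30, the other large-subunit protein with a small-subunit name, had 29.6, 20.8 and 22.4 CPM in positive and 24.7, 19.4 and 19.7 CPM in negative libraries, with overlap and a log2 fold change of 0.18 ± 0.11 (edgeR adjusted p = 0.26).

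In the small subunit the highest fitted changes were those of Mrps28, Mrps36 and Mrps2. Mrps28 (bS1m; ENSMUSG00000040269, chromosome 3 from 8802146 to 8923918, minus strand) had 22.02, 9.88 and 10.2 CPM in the positive libraries and 7.09, 4.59 and 4.45 CPM in the negative ones. It rose by 1.31 ± 0.18 on the log2 scale (edgeR adjusted p = 0.0185), and positive replicate 1 stood above the other positive libraries. Mrps36 (ENSMUSG00000061474, chromosome 13 from 100735955 to 100744659, minus strand) had 17.7, 14.9 and 15.1 CPM in positive and 6.70, 6.45 and 6.36 CPM in negative libraries. It rose by 1.29 ± 0.14 (edgeR adjusted p = 0.0127). Mrps2 (uS2m; ENSMUSG00000035772, chromosome 2 from 28468066 to 28471178, plus strand) had nearly equal levels within each group, 31.8, 32.5 and 32.01 CPM in positive and 16.7, 14.7 and 15.8 CPM in negative libraries. It rose by 1.03 ± 0.12 (edgeR adjusted p = 0.0138).

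The other small-subunit genes that rose were Mrps10, Mrps14 and Mrps25, with log2 fold changes of 0.84 ± 0.12, 0.81 ± 0.20 and 0.77 ± 0.12. Mrps10 (uS10m) had 27.2, 17.5 and 19.4 CPM in positive and 14.8, 10.7 and 10.3 CPM in negative libraries. Mrps14 (uS14m) was the member closest to the threshold, with an edgeR adjusted p of 0.0495, and had 33.2, 23.95 and 26.7 CPM against 13.9, 16.9 and 16.9 CPM. Mrps25 (mS25) had 23.3, 20.04 and 21.002 CPM against 14.4, 11.1 and 12.4 CPM. None of these 3 genes had overlapping groups. Of the exon bases of Mrps25, 69.8% also lie opposite exons of Nr2c2, which encodes a nuclear receptor and fell (log2 fold change -1.02, edgeR adjusted p = 0.016). The kit was stranded, but the notes used here do not say that reads were counted by strand. If they were not, reads of such a pair cannot be told apart.

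Among the remaining large-subunit genes, Mrpl28, Mrpl17 and Mrpl41 rose the most. Mrpl28 (bL28m) had 41.9, 43.2 and 44.7 CPM in positive and 20.7, 23.4 and 23.2 CPM in negative libraries, a log2 fold change of 0.95 ± 0.11 (edgeR adjusted p = 0.0135). Mrpl41 (mL41, in human cells also reported to bind Bcl-2) had 18.5, 19.4 and 19.5 CPM against 9.95, 10.5 and 10.5 CPM. Its log2 ratio was 0.89 in every pair, equal to its fitted change (SE 0.12, edgeR adjusted p = 0.0167). Libraries of the same group thus differed little in these genes, and the groups lay apart. The large-subunit genes with the smallest changes among those that rose were Mrpl16, Mrpl22, Mrpl13, Mrpl54, Mrpl50 and Mrpl46, with log2 fold changes of 0.65, 0.65, 0.64, 0.58, 0.56 and 0.54 and edgeR adjusted p from 0.0305 to 0.0458.

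**Figure D2:**
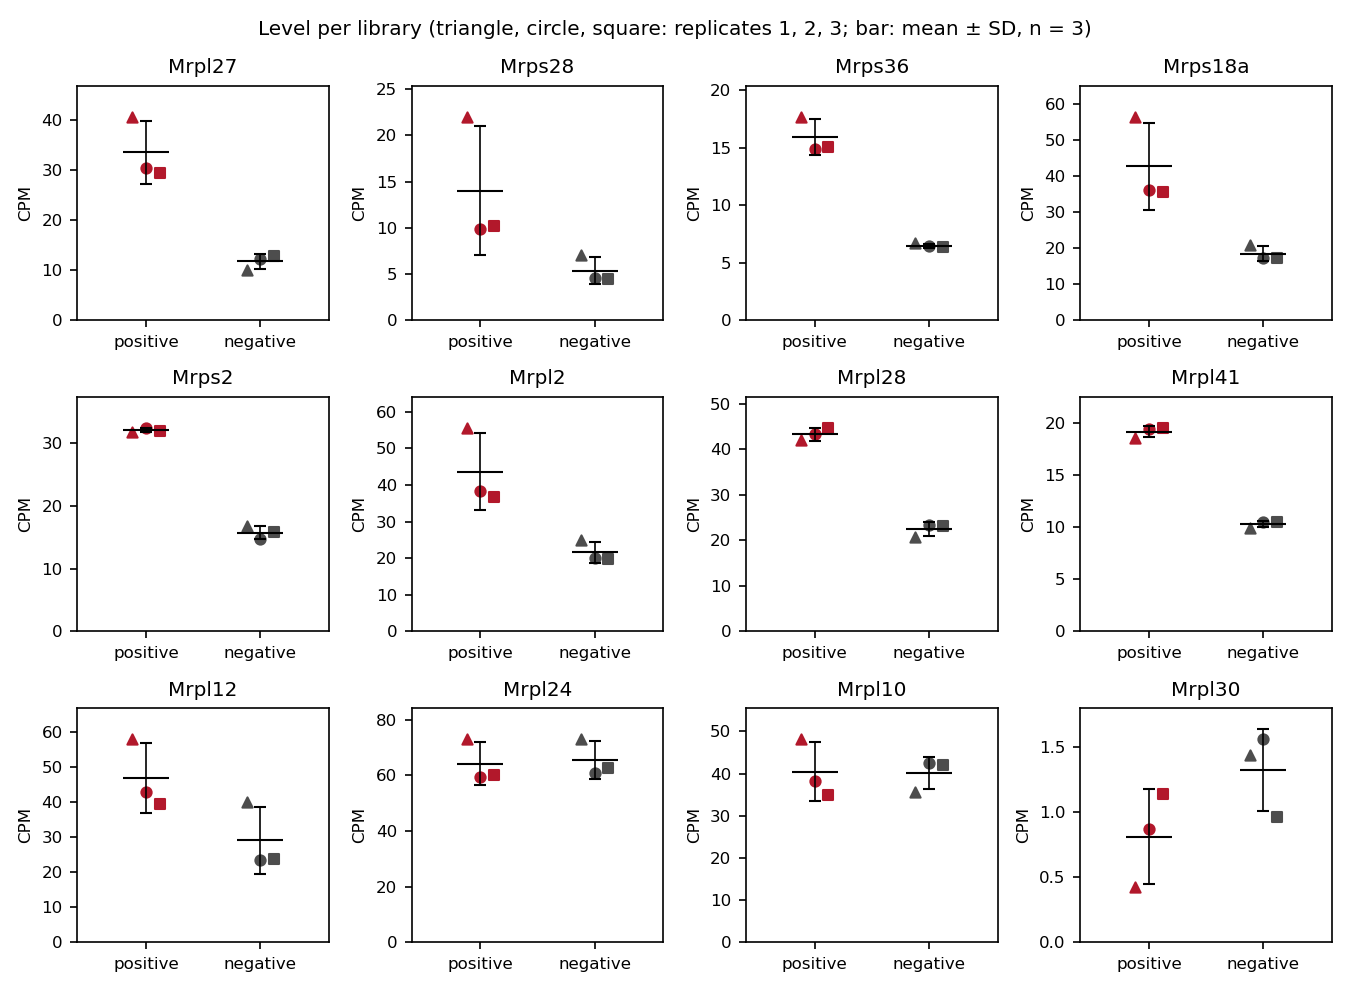
Level in CPM of 12 members in each library, Qtracker positive (red, left) and negative (grey, right), with the mean and SD of 3 libraries; each axis starts at 0. Mrpl27 lies between 29.5 and 40.8 CPM in positive and between 10.1 and 13.0 CPM in negative libraries, Mrps2 and Mrpl41 show little spread within groups, and the groups overlap in Mrpl12, Mrpl24, Mrpl10 and Mrpl30.

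Around the exit of the tunnel through which the new protein leaves the large subunit, members differed in their values. Mrpl17 (bL17m), a neighbour of the exit, had 38.9, 35.9 and 35.3 CPM in positive and 18.1, 20.98 and 20.02 CPM in negative libraries. It rose by 0.90 ± 0.13 on the log2 scale (edgeR adjusted p = 0.0191). Mrpl22 (uL22m), which lines the tunnel, had 19.5, 13.2 and 13.6 CPM against 10.5, 8.91 and 9.75 CPM and rose by 0.65 ± 0.15 (edgeR adjusted p = 0.0455). Mrpl24 (uL24m) had 73.2, 59.5 and 60.05 CPM in positive and 73.2, 60.7 and 62.6 CPM in negative libraries, so that the groups coincided (log2 fold change -0.03 ± 0.10, edgeR adjusted p = 0.828). Mrpl45 (mL45), which anchors the ribosome at the inner membrane, had a log2 fold change of 0.25 ± 0.16 (edgeR adjusted p = 0.273). Its ratios were 0.59, 0.09 and 0.08 in pairs 1, 2 and 3. Mrpl47 (uL29m) had 0.29 ± 0.15 (edgeR adjusted p = 0.212).

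The proteins of the stalk, which recruits the translation factors to the ribosome, did not share one value. Mrpl12 (bL12m, the repeated stalk protein) had 58.02, 42.8 and 39.3 CPM in the positive libraries and 39.9, 23.4 and 23.8 CPM in the negative ones. It rose by 0.71 ± 0.12 (edgeR adjusted p = 0.0256) although negative replicate 1 stood above positive replicate 3, since the test compares within pairs. Mrpl10 (uL10m), which holds Mrpl12 in place, had 48.3, 38.3 and 34.9 CPM against 35.7, 42.6 and 41.98 CPM. Pair 1 ran opposite to pairs 2 and 3 in this gene (log2 ratios 0.44, -0.15 and -0.27), for a fitted change of 0.00 ± 0.19 (edgeR adjusted p = 0.987). Mrpl11 (uL11m, at the base of the stalk) had 19.9, 21.7 and 22.2 CPM against 16.6, 10.9 and 12.7 CPM, with 0.69 ± 0.20 (edgeR adjusted p = 0.0648). Mrpl1 (uL1m, of the stalk on the other side, where the spent tRNA leaves) had 12.3, 13.97 and 16.4 CPM against 6.33, 10.1 and 10.6 CPM. It rose by 0.69 ± 0.16 (edgeR adjusted p = 0.0467). The genes of this paragraph and the one before it, other than Mrpl17 and Mrpl22, were chosen for their place in the ribosome after their values were known.

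The pairs were farthest apart in Mrpl30, Mrps6 and Mrpl52. Mrpl52 (mL52) had 36.5, 19.7 and 17.3 CPM in positive and 12.7, 11.2 and 12.5 CPM in negative libraries, with log2 ratios of 1.52, 0.82 and 0.47. Its groups did not overlap, but its fitted change of 0.94 ± 0.25 did not pass (edgeR adjusted p = 0.0593). Mrps6 (bS6m) had 4.92, 4.83 and 5.11 CPM in positive and 6.51, 2.62 and 2.81 CPM in negative libraries, so that only negative replicate 1 stood above the positive ones. Mrpl30 (uL30m) was low in every library, with 0.423, 0.876 and 1.14 CPM in positive and 1.44, 1.57 and 0.967 CPM in negative ones. Its log2 ratios were -1.67, -0.81 and 0.23, and its fitted value of -0.77 ± 0.52 was the lowest of the members (edgeR adjusted p = 0.306).

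Per kilobase of transcript, the highest levels over both groups were those of Mrps21 and Mrpl20. Mrps21 (bS21m) had 85.8 CPM per kilobase in positive and 61.6 in negative libraries on average, and Mrpl20 (bL20m) had 77.1 and 52.3. Neither passed the test (log2 fold changes of 0.50 ± 0.14 and 0.54 ± 0.20, edgeR adjusted p = 0.0642 and 0.113), although their groups did not overlap. The lowest tested levels were those of Mrpl23 (1.12 and 0.452 CPM per kilobase) and Mrpl30 (1.23 and 2.00). Mrpl42 was not tested, since it had 213 counts in negative replicate 1 and 0 in each of the other 5 libraries.

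Some members share sequence with near-identical copies elsewhere in the genome, between which counting can split their reads. Mrpl23, which encodes uL23m at the tunnel exit, had 49, 28 and 22 counts in positive and 17, 12 and 13 counts in negative libraries. Its pseudogene Mrpl23-ps1 shares 53.0% of the Mrpl23 transcripts' 31-base words, and its row had 2038, 1647 and 1796 counts in positive and 884, 623 and 696 counts in negative libraries. That row rose by 1.34 ± 0.11 on the log2 scale (edgeR adjusted p = 0.0095), against 1.19 ± 0.40 for the Mrpl23 row (edgeR adjusted p = 0.0924). Which of these rows the reads belong to cannot be told apart from the counts. Mrpl53 shares 100% of its words with the overlapping gene Gm42688, whose row had 3661 counts in all. Mrps18b shares 33.0% with Gm13552, which had 1121 counts and also rose (0.83, edgeR adjusted p = 0.0466). Mrps36 shares 30.6% and 28.4% with its pseudogene copies Mrps36-ps1 and Mrps36-ps2, which had 570 and 1355 counts. Mrpl27 shares 38.8% with Gm6304, which had 4 counts in all. Counts of 17 members that shared at least 10% of their words with another gene are uncertain for this reason. Without them, 18 of 60 members rose and 0 fell, with a median log2 fold change of 0.41.

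Because the size of these changes depends on what the libraries are scaled to, the members were set against several scales. The median over members was 0.50 with TMM, 0.46 with median-of-ratios factors, 0.35 with the upper quartile and 0.15 with library totals alone. The median over all tested genes moved along, at -0.01, -0.05, -0.15 and -0.36, as a common factor per library makes it do. The number of members that rose was 25, 21, 15 and 9 in the same order, and 0 fell in each. Of all tested genes 18.5%, 17.4%, 14.8% and 10.8% rose, and 16.3%, 17.0%, 18.1% and 22.7% fell. With library totals alone, 1572 of all tested genes rose and 3316 fell, instead of 2707 and 2384 with TMM. Scaled to the summed counts of the nuclear-encoded respiratory chain genes, 4 members rose and 5 fell, with a median of -0.06. The 5 were Mrpl10, Mrpl18, Mrpl24, Mrps16 and Mrps23, and over all tested genes 1239 rose and 4317 fell. Scaled to the summed counts of cytosolic ribosomal proteins, 57 members rose and 0 fell, with a median of 0.89, and over all tested genes 4617 rose and 1730 fell. A scale moves all genes of a library by about the same amount, so the distance of 0.50 to 0.51 between the medians of members and of all tested genes under these 6 scales follows from the construction and is no sign of stability.

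**Figure D3:**
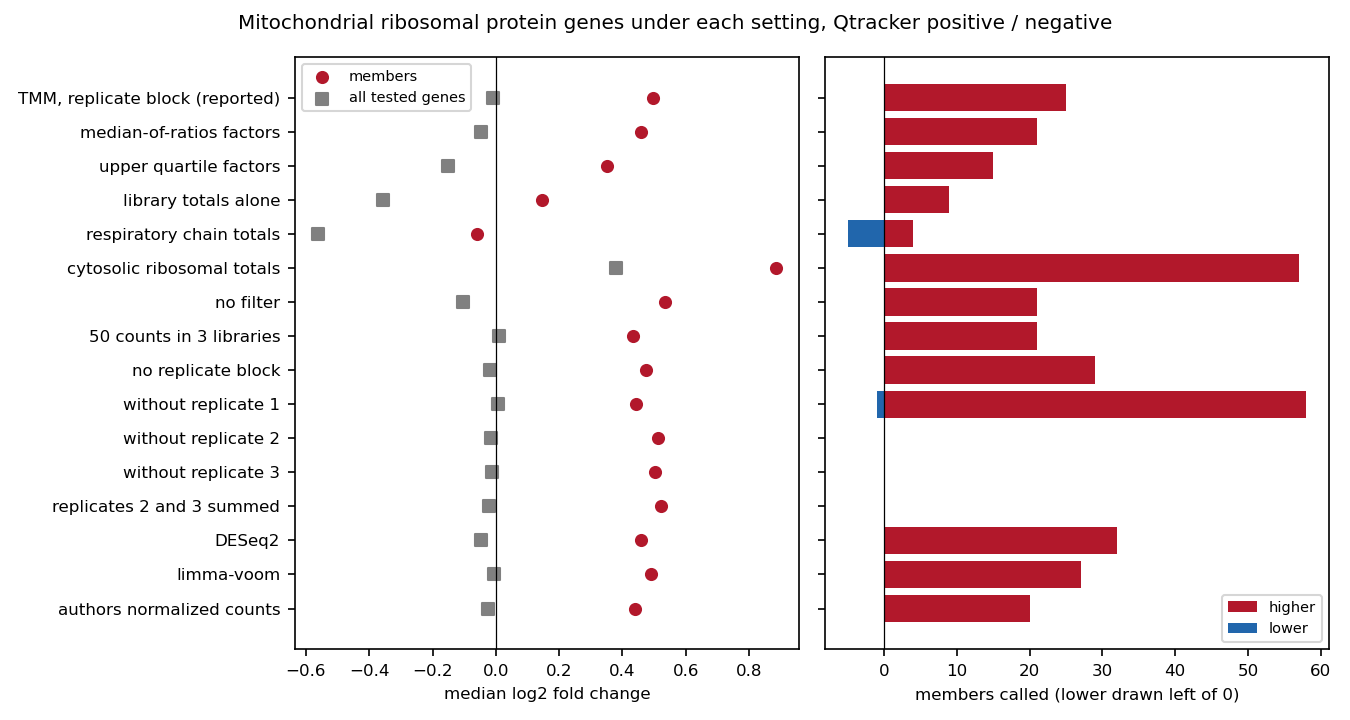
Left, median log2 fold change (Qtracker positive over negative) over the tested members (circles) and over all tested genes (squares) under each scale, filter, test and left-out replicate; right, number of members called higher (red) and lower (blue, drawn left of 0). The members' median runs from -0.06 to 0.89 with the scale, with that over all genes shifted along by construction, and no member was called without replicate 2 or without replicate 3.

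The calls, of members and of all genes alike, rested on which pairs were used. Without replicate 1, 58 members rose and 1 (Mrpl10) fell, where 37.1% of all tested genes rose and 35.8% fell. Without replicate 2 the edgeR test called 0 members in each direction, and few genes of the whole table passed (0.917% rose and 1.18% fell). Without replicate 3 it called 0 members and 0% of all tested genes. At an unadjusted p under 0.05, 12 of 76 members were held without replicate 2, where 30.0% of all tested genes were, and 11 of 76 without replicate 3, where 28.4% were. These shares of members lie below those of all tested genes. The median over members was 0.51 and 0.50 in these fits.

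Other genes of mitochondria gave a background for these values. Of 76 tested nuclear-encoded genes of the respiratory chain and ATP synthase, 36 rose and 1 (Cox6b2) fell. Their median log2 fold change was 0.67. Scaled to these genes themselves, 5 rose and 4 fell, where 8.48% of all tested genes rose and 29.6% fell. However, this respiratory chain scale holds the sum of these genes equal in all libraries by construction. Ndufc2, of complex I, had 62.3, 66.6 and 67.1 CPM in positive and 26.2, 27.03 and 29.2 CPM in negative libraries, and rose by 1.25 ± 0.10 (edgeR adjusted p = 0.00965). Sdhc, of complex II, had 106.8, 104.7 and 109.7 CPM against 36.5, 50.3 and 49.2 CPM and rose by 1.25 ± 0.15 (edgeR adjusted p = 0.0149). Of 20 genes for protein import into mitochondria 9 rose and 0 fell (median 0.59; 1 rose and 1 fell on the respiratory chain scale), with Timm10 at 1.62 ± 0.16 and Tomm20 at 1.16 ± 0.11 on the log2 scale (edgeR adjusted p = 0.0111 for both). Of 10 genes commonly used as measures of mitochondrial mass, Tomm20 again among them, 8 rose (median 0.78; 1 rose on the respiratory chain scale). The shares that rose, 47.4%, 45.0% and 80.0%, were above the 18.5% of all tested genes. The highest was Hspa9, a chaperone of the matrix, at 676.3, 273.2 and 280.99 CPM in positive and 159.02, 97.5 and 96.8 CPM in negative libraries (1.70 ± 0.19, edgeR adjusted p = 0.0135). Cs, encoding citrate synthase, was one of the 2 that did not pass (0.14 ± 0.16, edgeR adjusted p = 0.516).

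Of the 84 tested cytosolic ribosomal protein genes 0 rose and 9 fell (10.7%, beside 16.3% of all tested genes), with a median of -0.39. Scaled to their own sum, 5 rose and 0 fell, where 31.6% of all tested genes rose and 11.8% fell. However, that scale holds this sum equal in all libraries by construction. At an unadjusted p under 0.05 the edgeR test held 3 higher and 34 lower, where it held 50.3% of all tested genes in either direction. The number that fell depended on the setting, also relative to all tested genes. It was 40 with DESeq2 (25.1% of all tested genes fell), 18 with limma-voom (19.5%), 38 with library totals (22.7%) and 55 with respiratory chain totals (29.6%). Without replicate 1, 54 of 85 fell and 7 rose, where 35.8% of all tested genes fell and 37.1% rose. Without replicate 2, as without replicate 3, the edgeR test called 0. At an unadjusted p under 0.05 these fits each held 1 higher and 1 lower, where 30.0% and 28.4% of all tested genes were held. By limma-voom and by DESeq2 1 gene rose, where 20.6% and 23.4% of all tested genes did. Their sums were 25357, 17340 and 18265 CPM in the positive libraries and 36504, 21928 and 22618 CPM in the negative ones. The groups overlapped in this sum, but each positive library was below its own negative partner. The median log2 ratio was -0.49, -0.37 and -0.26 in pairs 1, 2 and 3. In 60 of the 84 genes the ratio was negative in every pair, where it was so in 5262 of 14605 tested genes. It was positive in every pair in 5, and 19 were mixed. Rpl36 had 159.4, 78.5 and 74.4 CPM in positive and 243.6, 114.0 and 112.6 CPM in negative libraries, and fell by 0.58 ± 0.11 on the log2 scale (edgeR adjusted p = 0.0293). Fitted without the replicate block, 2 of the 84 fell and 1 rose, where 20.9% of all tested genes fell and 19.9% rose.

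Lists of genes that act with the mitochondrial ribosome follow, and their shares were not tested against that of the members. Of the 5 ribosomal proteins whose names lie outside the rule, Chchd1 (mS37) rose, at 25.6, 20.8 and 22.95 CPM in positive and 14.8, 15.1 and 13.6 CPM in negative libraries (0.67 ± 0.13, edgeR adjusted p = 0.0331). Aurkaip1 (mS38) had 0.48 ± 0.24 (edgeR adjusted p = 0.189), and the remaining 3, Dap3, Ptcd3 and Gadd45gip1, had fitted values of -0.01, -0.17 and 0.04. Of 30 genes for assembly of the ribosome and modification or stability of its RNA 7 rose and 0 fell (23.3%, median 0.17). Slirp and Lrpprc, whose products form a complex that stabilises mitochondrial messenger RNA, rose by 1.07 ± 0.13 and 0.93 ± 0.15 (edgeR adjusted p = 0.0148 and 0.023). Of 13 translation factors 3 rose and 0 fell (23.1%, median 0.39). They were the elongation factor Gfm1 (0.74 ± 0.11, edgeR adjusted p = 0.0203), the recycling factor Mrrf (0.90 ± 0.14, edgeR adjusted p = 0.0204) and the elongation factor Tsfm (0.69). Of 17 mitochondrial aminoacyl-tRNA synthetases 4 rose and 1 fell (23.5%, median 0.25). Tars2, for threonine, rose by 0.90 ± 0.16, and Mars2, for methionine, fell by 1.24 on the log2 scale, with 7.61, 7.70 and 6.85 CPM in positive and 27.4, 14.2 and 13.6 CPM in negative libraries (edgeR adjusted p = 0.0283 and 0.0362). These shares are near the 18.5% of all tested genes. On the respiratory chain scale 0 genes of these 3 lists rose and 2, 1 and 2 fell, where 8.48% of all tested genes rose and 29.6% fell.

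Transcripts of mitochondrial DNA itself include the ribosomal RNAs that these proteins bind. Of 15 such genes 0 rose and 1 (mt-Nd3) fell, beside 18.5% and 16.3% of all tested genes, with a median of -0.05. At an unadjusted p under 0.05 the edgeR test held 1 higher and 2 lower, where it held 50.3% of all tested genes in either direction. DESeq2 called 1 higher and 2 lower, where it called 23.4% and 25.1% of all tested genes. Without replicate 1, where 37.1% of all tested genes rose and 35.8% fell, 8 of the 15 rose and 3 fell, with a median of 0.14. mt-Rnr1, the small ribosomal RNA, had 54.7, 108.1 and 127.8 CPM in positive and 213.6, 175.8 and 199.7 CPM in negative libraries, with no overlap, a log2 fold change of -1.10 ± 0.34 and an edgeR adjusted p of 0.0758. mt-Rnr2, the large ribosomal RNA, had 191.3, 342.1 and 418.6 CPM against 378.4, 429.5 and 463.7 CPM (-0.49 ± 0.23, edgeR adjusted p = 0.168). These RNAs were chosen for their place in the ribosome after their values were seen. The median ratio over the 15 genes was -0.60, 0.08 and 0.24 in pairs 1, 2 and 3, so pair 1 ran opposite to the others, and positive replicate 1 had the lowest sum of all (4244 CPM, against 6199 to 7623 CPM in the rest). None of the 12 genes for transcription and replication of mitochondrial DNA passed the edgeR test (median -0.29). At an unadjusted p under 0.05 it held 2 higher and 4 lower, again beside 50.3% of all tested genes. For this list DESeq2 called 2 higher and 4 lower and limma-voom 2 higher, where limma-voom called 20.6% of all tested genes higher. The nearest were Top1mt (0.94 ± 0.23, edgeR adjusted p = 0.0505) and Tefm (0.76 ± 0.19, edgeR adjusted p = 0.0521).

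**Figure D4:**
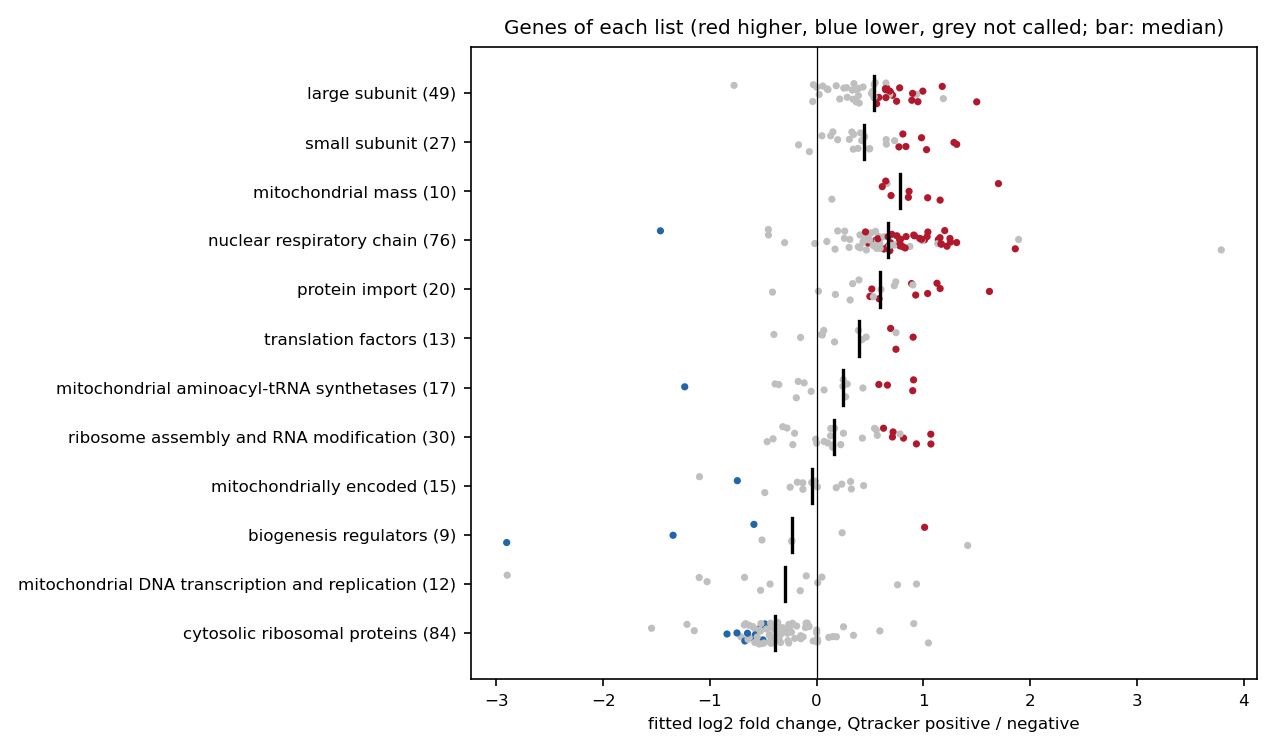
Fitted log2 fold change (Qtracker positive over negative) of each tested gene of the 2 subunits and 10 other lists; red points rose, blue points fell, grey points did not pass, bars are medians, and the number tested is in parentheses. The subunits' medians of 0.54 and 0.45 stand between those of the respiratory chain (0.67) and of mitochondrially encoded genes (-0.05). That of cytosolic ribosomal proteins is -0.39 (0.00 when scaled to their own sum, which holds this sum equal by construction).

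Among 9 regulators of mitochondrial gene expression 1 rose and 3 fell, where 18.5% and 16.3% of all tested genes did. With library totals, and likewise with respiratory chain totals, 0 rose and 6 fell. With cytosolic ribosomal totals 3 rose and 1 fell, and without replicate 1, 3 rose and 6 fell. Of all tested genes 10.8% rose and 22.7% fell with library totals, and 8.48% and 29.6% with respiratory chain totals. The shares were 31.6% and 11.8% with cytosolic ribosomal totals and 37.1% and 35.8% without replicate 1. Pprc1, a coactivator related to PGC-1, had 70.2, 59.7 and 57.07 CPM in positive and 45.9, 25.01 and 25.4 CPM in negative libraries (1.01 ± 0.18, edgeR adjusted p = 0.0268). Nrf1 had 38.7, 34.5 and 36.02 CPM against 53.7, 55.06 and 55.2 CPM (-0.59 ± 0.11, edgeR adjusted p = 0.0292), so its messenger RNA was lower in every positive library. Myc and Ppargc1a also fell (-1.34 and -2.90, edgeR adjusted p = 0.0304 and 0.0473), and Ppargc1a had only 147 counts in all. Gabpa, encoding the DNA-binding subunit of GABP, had -0.23 ± 0.10 and Yy1 had -0.23 ± 0.12 (edgeR adjusted p = 0.148 and 0.188).

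Members rose both with and without the letters of these factors' motifs in their promoters. Of the 34 tested members with an NRF1, ETS or YY1 match 8 rose, with a median of 0.40, and of the 33 with a window and no match 14 rose, with a median of 0.54. Of the 7 with the NRF1 letters 3 rose (median 0.39), of the 25 with the ETS letters 6 rose (median 0.42), and of the 7 tested with the YY1 letters 3 rose (median 0.55). Over all tested genes 18.5% rose, and no test was made of these differences. The windows printed above show the same mixture, with the NRF1 letters in Mrps18b, at 0.98, and in Mrpl10, at 0.00.

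Many genes of this family start back to back with a neighbour on the opposite strand. Such a neighbour within 1000 bases of the start was found for 25 members, and in 1 case, Mrps11 and Mrpl46, both genes are members. In some of these pairs exons of the genes overlap on opposite strands. Among them are Mrpl13 with Mtbp (330 bases), Mrpl27 with Eme1 (75 bases) and Mrpl36 with Ndufs6 (30 bases). Of the 23 neighbours that are not members 4 rose, 3 fell and 16 did not pass, where 18.5% of all tested genes rose and 16.3% fell. The neighbours' median log2 fold change was -0.08. Beside them 9 of the members rose. In 4 pairs both genes rose (Mrpl2 with Klc4, Mrpl36 with Ndufs6 of complex I, Mrpl54 with Apba3 and Mrpl41 with Pnpla7). The fitted values had the same sign in 13 of the 23 pairs, and these counts were not tested. Mrpl13 rose (0.64 ± 0.12, edgeR adjusted p = 0.0305) while Mtbp, which starts 340 bases away, fell (-0.85 ± 0.14, edgeR adjusted p = 0.0235). Mrpl27 and Eme1, whose starts are 197 bases apart, had fitted values of 1.50 and -1.84, of which the second did not pass (SE 0.68, edgeR adjusted p = 0.109). Mrpl51 had 0.44 ± 0.20 (edgeR adjusted p = 0.165), and Ncapd2, a condensin gene of dividing cells that starts 100 bases away, fell (-2.48 ± 0.43, edgeR adjusted p = 0.0264). Mrpl49, which had -0.04, starts 59 bases from Fau, a gene of the cytosolic ribosome that fell (-0.61 ± 0.10, edgeR adjusted p = 0.025). In all, 26 members overlap an exon of another gene on the opposite strand, where reads cannot be told apart if strand was not used.

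**Figure D5:**
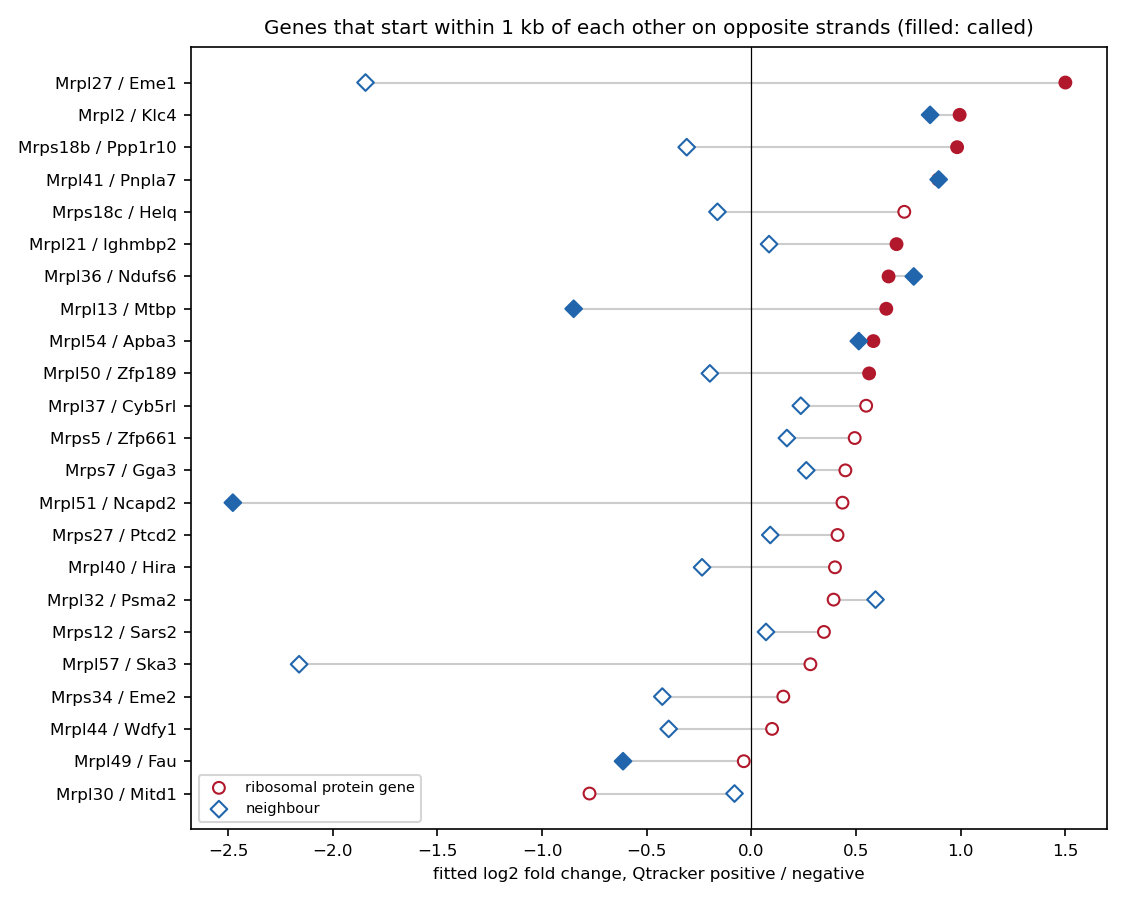
Fitted log2 fold change (Qtracker positive over negative) of 23 members (circles) and of the neighbour that starts within 1000 bases on the opposite strand (diamonds), filled where called. Neighbours lie on both sides of 0, from -2.48 (Ncapd2) to 0.90 (Pnpla7, hidden with Mrpl41 at 0.89), while all but 2 of the members shown lie above 0.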

How the data were processed

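The series measured RNA of 3 Qtracker positive and 3 Qtracker negative libraries, made with a stranded kit per the labels' protocols. Per the submitters' processing notes, FastQC and Salmon were used with mm10, without versions or a strand setting. The deposited raw table holds whole numbers per gene, read here as the authors' estimated counts because the notes name Salmon; how transcripts were joined into genes is not stated there. A second deposited table holds the authors' normalized signal of the same genes, with no method stated, and was used only as an alternative, as log2(value + 1).

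Missing symbols (5210) were filled from GENCODE M21, and 219 IDs had none. Counts were fitted with edgeR 4.0.16 (R 4.3.3): TMM scaling, filterByExpr (minimum count 10, minimum total 15), quasi-likelihood test, replicate number as a block, Benjamini-Hochberg adjustment over 14605 genes, called under 0.05. The series' design text gives the pairing. Deviations from the group means correlated 0.198, 0.0769 and 0.158 between same-numbered libraries, whose highest values with another number were -0.152, 0.116 and 0.147. Levels per library are TMM-scaled CPM. Pair ratios use a prior count of 2. Standard errors beside edgeR changes are approximate, taken as the absolute log2 fold change divided by the square root of its F statistic. Total depth was 33943090 to 55506993 counts, and 3 libraries a group limit the precision of every member.

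The members and lists were chosen with earlier results of these data known. Genes were named by rule: the 6 highest and 6 lowest called changes in the large and the 4 highest and 4 lowest in the small subunit, the 3 widest pair ranges, the 2 highest and 2 lowest levels per kilobase, the Mrps18 genes and Mrps30, the 2 lowest p-values of each other list, and members below the filter. Other names were chosen after their values were seen. A gene that the rule names in the cytosolic ribosomal list is not reported here. S6 kinases and Rps19bp1 match the cytosolic ribosomal name pattern but were left out, as were pseudogenes. Copies were found by shared 31-base words of GENCODE transcripts, listed from 10%. Alternatives were RLE, upper quartile, library total, respiratory chain total and cytosolic ribosomal total scaling, no filter, 50 counts in 3 libraries, no block, each replicate left out, replicates 2 and 3 summed, DESeq2 1.42.0, limma-voom (limma 3.58.1) and the normalized signal. Figures were drawn with matplotlib 3.10.9.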

Additional observations from a re-analysis of the deposited data

How the results depend on the processing

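Members called higher numbered 25 as reported, 21 with median-of-ratios factors, without a filter and with at least 50 counts in 3 libraries, 32 with DESeq2, 27 with limma-voom and 20 with the authors' normalized values, with 0 lower in each. They numbered 15 with upper quartile factors, 9 with library totals, 4 with respiratory chain totals and 57 with cytosolic ribosomal totals. With each replicate left out in turn they ranged from 0 to 58, and with replicates 2 and 3 summed they were 0. Members called lower numbered 5 with respiratory chain totals and ranged from 0 to 1 with a replicate left out. The median over members was 0.35 with upper quartile factors, 0.15 with library totals, -0.0602 with respiratory chain totals, a reversed sign, and 0.89 with cytosolic ribosomal totals. In the other settings it lay between 0.43 and 0.53, and its distance from the median of all genes, which a change of scale leaves nearly as it is, ran from 0.42 to 0.64 over the filters, tests and left-out replicates. Under respiratory chain totals 45 of 76 members had a negative value, against 5 as reported. Among the named ones Mrpl46, which had been called, reversed (-0.0161), and values that had passed in neither fit, such as those of Mrps6, Mrpl20, Mrps21 and Mrps30, were negative (-0.10, -0.016, -0.06 and -0.37). Over all tested genes, 1572 rose with library totals, 1239 rose and 4317 fell with respiratory chain totals, 4617 rose with cytosolic ribosomal totals, and 3665 fell with DESeq2. With a replicate left out, 0 to 5538 rose and 0 to 5352 fell, and with replicates 2 and 3 summed 0 did either. The scalings differ by construction in what they hold constant, and left-out replicates leave fewer libraries. Other causes were not tested.

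Without the replicate block, where 19.9% of all tested genes rose and 20.9% fell, 29 members rose and 0 fell. Of these 29, 21 also rose in the paired fit, and the median over members was 0.47. The block changed none of the directions of these counts. Libraries of 3 a group limit every p-value, and Mrpl23, Mrpl30 and Mrpl42 have too few counts for their values to carry weight. The part of other cell types in the negative libraries, and of negative replicate 1 in the spread, was not tested.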
